A study of Mus musculus with 11 samples.

Results

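The genes described here encode the phosphatases and adaptors that act below inhibitory receptors or restrain T cell receptor signalling in CD8+ regulatory T cells (CD8+ Tregs). The members were 9 genes chosen by name, Ptpn6, Ptpn11, Inpp5d, Ptpn22, Ptpn2, Ptprc, Csk, Dok1 and Dok2, and all 9 were found among the 54532 genes of the deposited table. The cells were CD8+CD44+Ly49+CD122+ T cells sorted by flow cytometry from the spleens of wild-type C57BL/6J mice, with no transgene or treatment in any group. Bulk RNA sequencing gave 11 libraries, 6 of them young (3 of each sex) and 5 middle-aged (2 of males and 3 of females). Young mice were 2 to 3 months old and middle-aged mice, which the sample labels call Old, were 10 to 12 months old. The series was made to compare the transcriptome of these cells between the age groups, and all fold changes below are middle-aged over young. The study describes the libraries as biologically independent, and each carries a replicate number of 1 to 3 within its sex and age group.

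Inhibitory receptors such as the Ly49 proteins carry short tyrosine motifs (ITIMs) in their cytoplasmic tails. Once phosphorylated by Src family kinases, these motifs dock SH2 domain phosphatases, which remove phosphate from nearby activating kinases and adaptors or from membrane inositol lipids. Other members act on the kinase Lck itself. Csk phosphorylates the inhibitory tyrosine of Lck, the receptor phosphatase CD45 removes that phosphate, and PTPN22, a partner of Csk, removes the activating one. Ly49 receptors are part of the gate that defines CD8+ Tregs, so that this machinery lies directly below the proteins used to sort the cells.

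Total counts ranged from 6135736 to 24394532 per library, and between 13025 and 19372 genes had at least 1 count. All 9 genes were well above the detection limit. The lowest count of any of them in any library was 89, for Dok1 in the library of young male 1, the shallowest. The T cell and gate genes Cd3e, Cd8a, Cd8b1, Cd44, Il2rb, Ikzf2, Klra6 and Klra7, 8 in all, had counts in every library and summed to 5093 to 6995 CPM (counts per 1000000 counts of the library, with library totals scaled by edgeR's TMM factors) in young and 5205 to 7401 CPM in middle-aged libraries. Markers of other cells were also read. A list of 8 B cell markers summed to 112 to 384 CPM in young and 141 to 423 CPM in middle-aged libraries, with Ms4a1, Pax5, Cr2 and Blnk each at 0 in at least 1 library. A list of 9 myeloid markers ran higher in the middle-aged group, at 140.4 to 292 CPM in young (median 187) and 196 to 2839 CPM in middle-aged libraries (median 306), of which middle-aged female 2 had 2839 CPM and the next 411 CPM. Its Lyz2 had a log2 fold change of 2.38 (edgeR adjusted p = 0.910), and those of S100a8, S100a9, Clec7a, Spi1 and Cd68 ran from 0.97 to 4.18. The list was not of 1 direction, as Csf1r had 0.10, Fcer1g -0.37 and Itgam -0.73. Csf1r, Itgam, Cd68, S100a8, S100a9, Spi1 and Clec7a were each at 0 in at least 1 library. A list of 6 NK cell markers summed to 459 to 650.0 CPM in young and 334 to 762 CPM in middle-aged libraries, with none at 0. The sum hid opposite directions, since Klre1, the largest of them, had a log2 fold change of 0.65 and the others were negative. They were Ncr1 (-2.33, edgeR adjusted p = 0.660), Tyrobp (-0.88), Klri2 (-0.86), Klrb1c (-0.78) and Itga2 (-0.55), none with an adjusted p under 0.05. A list of 4 CD4 T cell markers summed to at most 30.9 CPM, with Foxp3, Zbtb7b and Cd40lg each at 0 in at least 1 library. The 5 erythroid markers ran lower in the middle-aged group, at 25.9 to 154 CPM in young (median 35.3) and 1.05 to 29.3 CPM in middle-aged libraries (median 8.05), with Hbb-bt and Alas2 each at 0 in at least 1 library. Their 4 globin genes had log2 fold changes of -2.41 to -2.85 (edgeR adjusted p from 0.498 to 1.00). B cells, myeloid cells and NK cells also express Ptprc, Ptpn6 and Inpp5d, and the part of these cells in the values was not tested. In bulk RNA, fewer cells of a type and less RNA per cell cannot be told apart.

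The libraries numbered 1 stood apart from the others in both age groups and both sexes. With a term for them in the model, which was added after the data were seen, edgeR's quasi-likelihood test placed 33.7% of the 13129 tested genes apart at an adjusted p under 0.05, 17.7% lower and 16% higher in the 4 libraries numbered 1 than in the 7 others. Long genes were read less in them. The median log2 difference was 0.82 in the decile of shortest genes (median length 499 bases) and -0.60 in the decile of longest genes (median length 11605 bases). The labels do not say what the number stands for. Young libraries numbered 1 had the lowest total counts, 6135736 (male) and 8421396 (female). Those of the middle-aged group had 23113240 (male) and 20304535 (female), so that low depth went with number 1 in the young alone. Values from the 7 libraries numbered 2 or 3 alone are therefore given beside the age results they move.

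None of the 9 genes passed the test for age. With a term for sex, edgeR's quasi-likelihood test put 0 of the 9 past an adjusted p of 0.05, where 0.0229% of all tested genes did, and 0 of the 9 had an unadjusted p under 0.05, where 2.99% of all tested genes did. DESeq2, which called 0.86% of all genes it tested, and limma voom, which called 1.05%, also called 0 of the 9. Among the 7 libraries numbered 2 or 3 alone, edgeR called 0 of the 9 and 0.022% of all tested genes. Without middle-aged female 2, the library with the high myeloid marker sum, the log2 fold changes of Ptpn6, Inpp5d and Ptprc were -0.14, -0.07 and -0.00. The age groups overlapped in CPM for each of the 9 genes, while 1.31% of all tested genes had age groups that did not overlap. The log2 fold changes lay between -0.07 (Ptpn6) and 0.32 (Ptpn22), 7 of them positive and 2 negative, with a median of 0.03. The median over all tested genes was 0.0028 and the median absolute value 0.21. The widths of the intervals differed. The 95% interval was narrowest for Ptpn2, from -0.40 to 0.41, and widest for Inpp5d, from -1.04 to 0.99. A 2-fold change with age in either direction thus lay outside the interval of 8 of the 9 genes, all but Inpp5d.

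**Figure D1:**
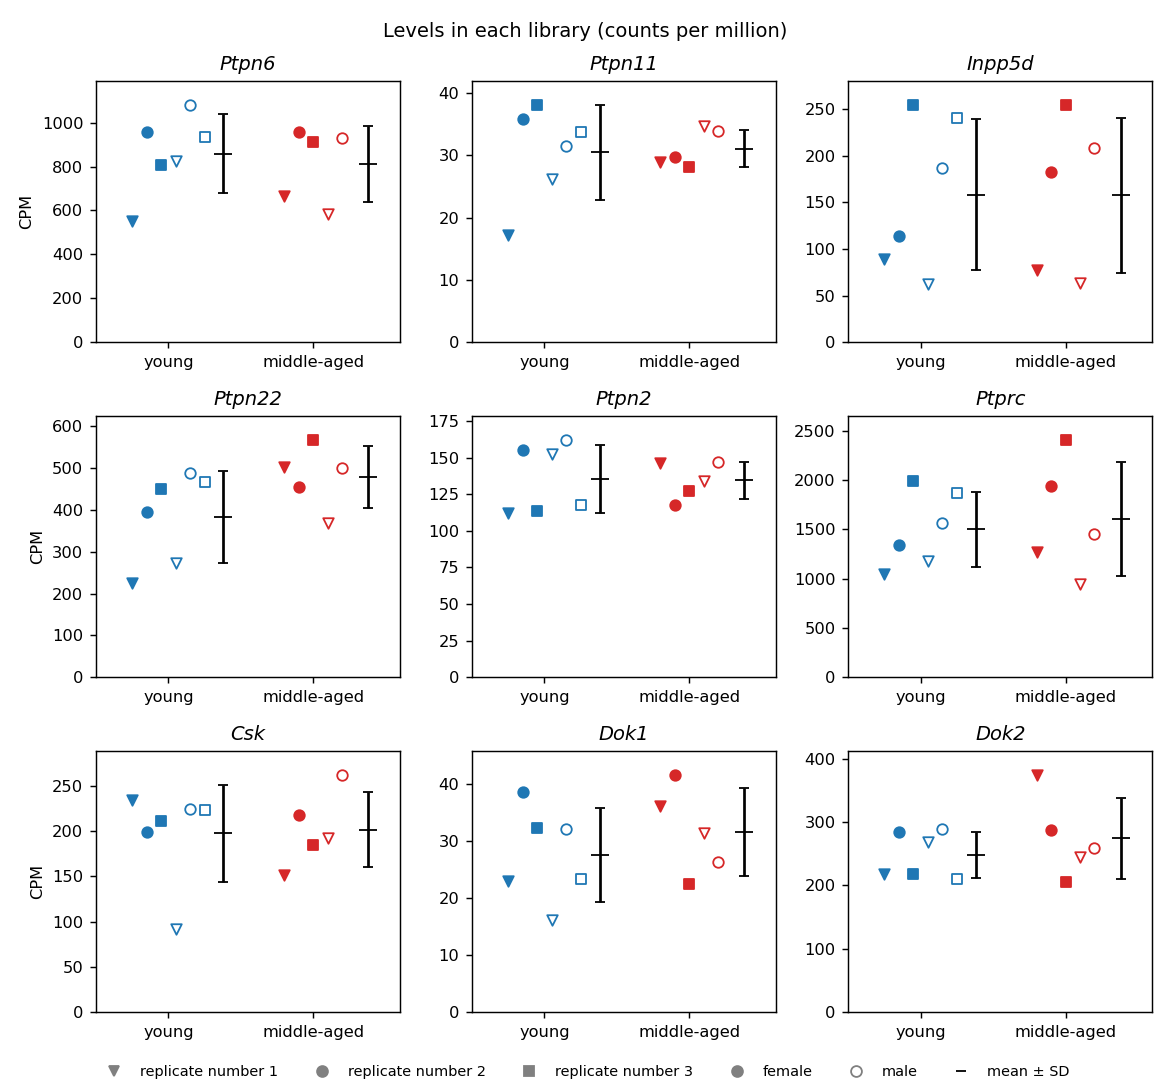
Level of each gene in CPM (y axis, from 0) in the 6 young and 5 middle-aged libraries. Filled symbols are females and open symbols males, the symbol shape gives the replicate number, and the black bar is the mean ± SD of the age group. The age groups overlap for all 9 genes, and the triangles (number 1) hold the lowest values of Inpp5d and Ptprc in both age groups.

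**Figure D2:**
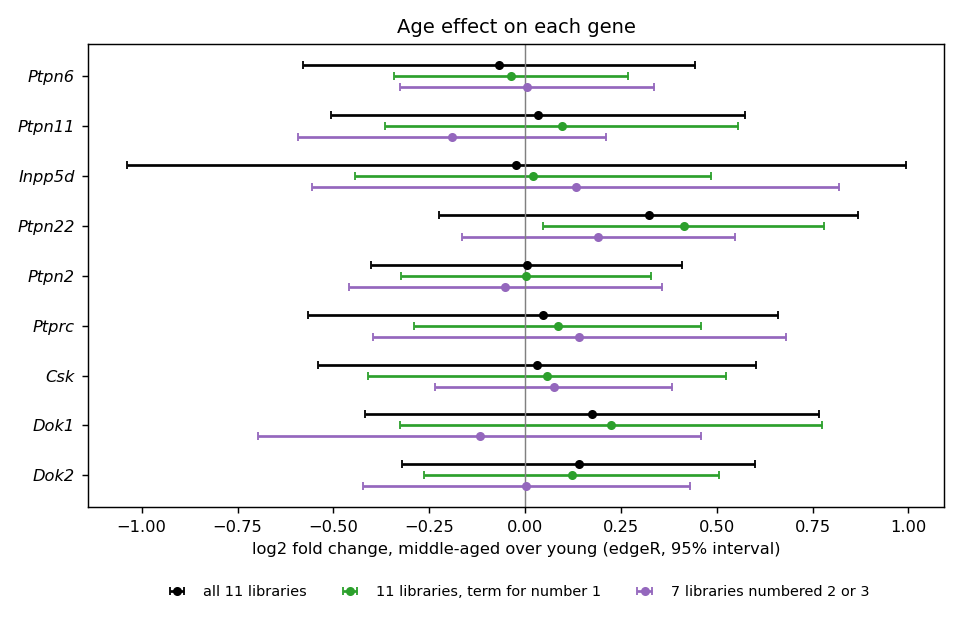
Log2 fold change of each gene, middle-aged over young, with its 95% interval, from edgeR with all 11 libraries (black), with a term for the libraries numbered 1 (green) and with the 7 libraries numbered 2 or 3 alone (purple). All black intervals include 0, and with the term for number 1 the interval of Inpp5d narrows to -0.44 to 0.49 and that of Ptpn22 runs from 0.05 to 0.78.

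Ptpn6 and Ptpn11 encode SHP-1 and SHP-2, the tyrosine phosphatases with paired SH2 domains that bind ITIMs. SHP-1 is largely restricted to blood cells and is the main effector of inhibitory Ly49 receptors, whereas SHP-2 is made in nearly all cells and also promotes signalling below growth factor receptors. Ptpn6 (ENSMUSG00000004266) is a minus-strand gene at 124720707 to 124738714 on chromosome 6 (build GRCm38, as are all positions here). It ranged from 551 CPM (young female 1) through a median of 878 to 1081 CPM (young male 2) in the young libraries. The middle-aged libraries had 584 (male 1), 930.2 (male 2), 667 (female 1), 958 (female 2) and 912 CPM (female 3). The low middle-aged libraries were those numbered 1, and both age groups covered nearly the same range. Ptpn6 averaged 859 ± 180.2 CPM in the young (SD, n = 6) and 810.2 ± 172 CPM in the middle-aged group (SD, n = 5). Its log2 fold change was -0.07 (95% interval -0.58 to 0.44, edgeR adjusted p = 1.00). With the libraries numbered 2 or 3 alone it was 0.0057 (95% interval -0.33 to 0.34).

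Ptpn11 (ENSMUSG00000043733, minus strand of chromosome 5, 121130533 to 121191397) was read far less. It had 17.2 to 38.1 CPM in young libraries (median 32.7) and 28.2 to 34.8 CPM in middle-aged libraries. Its log2 fold change was 0.03 (95% interval -0.51 to 0.57, edgeR adjusted p = 1.00). In the libraries numbered 2 or 3 alone the sign turned, at -0.19 (95% interval -0.59 to 0.21, edgeR adjusted p = 0.999). The SH2 phosphatases thus stood far apart in level. Per gene length, Ptpn6 was the highest of the 9 genes at 299 ± 60.5 RPKM (CPM divided by the gene length in kilobases, SD, n = 11) and Ptpn11 the lowest at 4.10 ± 0.766 RPKM. The count ratio of Ptpn6 to Ptpn11 within a library ran from 21.2 to 34.2 in young and from 16.8 to 32.3 in middle-aged CD8+ Tregs, and the mean log2 ratio, middle-aged minus young, was -0.15 (2-sided exact permutation p = 0.487, adjusted over 4 ratios 0.974). Its sign turned among the libraries numbered 2 or 3, where it was 0.18 (exact permutation p = 0.400, adjusted 0.714).

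The promoters of this pair are shown because the pair differs so much in level. RefSeq's start sites gave a sequence for 6 of the 9 genes (build GRCm38.p6), each running from 250 bases before the start to 50 after it, 5′ to 3′ on the gene's strand. Dok1, Dok2 and Ptpn2 had no entry. The Ptpn6 sequence is chr6:124738660-124738959 and the Ptpn11 sequence chr5:121191348-121191647, both on the minus strand, and capitals mark each CG dinucleotide, which reads the same on both strands.
Ptpn6: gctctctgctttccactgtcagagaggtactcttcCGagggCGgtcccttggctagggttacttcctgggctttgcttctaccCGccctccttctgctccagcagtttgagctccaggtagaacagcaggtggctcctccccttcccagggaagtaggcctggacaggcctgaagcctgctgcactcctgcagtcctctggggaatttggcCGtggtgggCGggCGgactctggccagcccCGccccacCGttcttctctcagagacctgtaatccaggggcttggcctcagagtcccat
Ptpn11: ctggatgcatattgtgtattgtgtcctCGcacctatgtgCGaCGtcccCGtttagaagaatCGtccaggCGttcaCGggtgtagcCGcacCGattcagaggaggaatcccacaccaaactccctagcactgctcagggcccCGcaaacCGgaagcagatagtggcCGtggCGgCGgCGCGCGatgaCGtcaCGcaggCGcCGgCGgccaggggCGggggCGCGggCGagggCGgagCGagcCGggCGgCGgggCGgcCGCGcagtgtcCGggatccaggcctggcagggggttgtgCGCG
The Ptpn6 promoter held 8 CG dinucleotides and the Ptpn11 promoter 37. The median over the 32851 promoters of the same length was 7. At least 37 were found in 5.58% of them, and at least 8 in 48.7%. This is a description of the sequence and not of how either gene is controlled.

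Inpp5d encodes SHIP-1, the SH2 domain phosphatase that removes the 5-phosphate from the lipid product of PI 3-kinase and is recruited by FcγRIIB and other inhibitory receptors. The gene (ENSMUSG00000026288, plus strand of chromosome 1, 87620312 to 87720507) was the most variable of the 9, with a 4.06-fold range over the 11 libraries. The young libraries had from 62.8 (male 1) through a median of 151 to 254 CPM (female 3). Values in the middle-aged group were 63.6 (male 1), 208 (male 2), 78.1 (female 1), 183 (female 2) and 255 CPM (female 3). The age means were nearly equal, at 158 ± 80.7 CPM in the young (SD, n = 6) and 157 ± 83.3 CPM in the middle-aged group (SD, n = 5). The log2 fold change was -0.02 (95% interval -1.04 to 0.99, edgeR adjusted p = 1.00).

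The values of Inpp5d separated by replicate number. The 4 libraries numbered 1 had 62.8 to 89.4 CPM, the 4 numbered 2 had 114 to 208 CPM and the 3 numbered 3 had 241 to 255 CPM, with no overlap between the numbers. Over all tested genes, 12.3% had every library numbered 1 below every other library and 12.8% had every one above. The share of genes with all 3 numbers apart was not counted. The mean of Inpp5d was 73.4 ± 12.8 CPM (SD, n = 4) in libraries numbered 1 and 206 ± 50.2 CPM (SD, n = 7) in the others, a log2 difference of -1.49 (standard error 0.23, edgeR adjusted p = 9.0e-04). The B cell marker sum also differed by number. It was 112 to 172 CPM in libraries numbered 1, 179 to 416 CPM in those numbered 2 and 376 to 423 CPM in those numbered 3, and its part in the level of Inpp5d was not tested. Inpp5d is a long gene, at 7602 bases in the table, and its difference of -1.49 lay below the median of -0.69 in the length decile around 7873 bases and below the middle 50% of that decile, which began at -1.34. Among the 7 libraries numbered 2 or 3 the log2 fold change with age was 0.13 (95% interval -0.56 to 0.82, edgeR adjusted p = 0.999).

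Ptprc encodes CD45, the abundant receptor phosphatase that keeps Lck responsive, and Csk the kinase that opposes it. Ptprc (ENSMUSG00000026395, minus strand of chromosome 1, 138062861 to 138175708) had the highest CPM of the 9 genes. It ranged from 1052 (female 1) through a median of 1454 to 1987 CPM (female 3) in young libraries. In middle-aged libraries it had 949 (male 1), 1453 (male 2), 1274 (female 1), 1939 (female 2) and 2410.2 CPM (female 3). The young mean was 1499 ± 377 CPM (SD, n = 6) and the middle-aged mean 1605 ± 575 CPM (SD, n = 5), and the fitted log2 fold change was 0.05 (95% interval -0.57 to 0.66, edgeR adjusted p = 1.00). With the libraries numbered 2 or 3 alone it was 0.14 (95% interval -0.40 to 0.68). As for Inpp5d, the libraries numbered 1 lay below all others, at 949 to 1274 CPM against 1339 to 2410.2 CPM, a log2 difference of -0.68 (95% interval -1.07 to -0.29, edgeR adjusted p = 0.0134). Over all tested genes, 12.3% had every library numbered 1 below every other library. The table gives 1 value per gene, so that the splice forms of CD45 were not measured.

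Csk (ENSMUSG00000032312, minus strand of chromosome 9, 57626646 to 57653631) had 91.3 CPM in young male 1 and 199 to 234 CPM in the other young libraries. The middle-aged libraries had 192 (male 1), 262 (male 2), 151 (female 1), 218 (female 2) and 185 CPM (female 3). Apart from young male 1, the young values lay within the middle-aged range. The log2 fold change was 0.03 (95% interval -0.54 to 0.60, edgeR adjusted p = 1.00), and -0.12 without young male 1. With the libraries numbered 2 or 3 alone it was 0.08 (95% interval -0.23 to 0.38). Ptprc exceeded Csk by 4.49 to 12.9 times in counts within young and 4.95 to 13.0 times within middle-aged libraries, and the mean log2 ratio of this opposed pair was -0.01 apart, middle-aged minus young (exact permutation p = 0.989, adjusted 0.989). Among the libraries numbered 2 or 3 this value was 0.14 (exact permutation p = 0.686, adjusted 0.714).

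Ptpn22 encodes the lymphoid phosphatase that works with Csk against active Lck and ZAP-70, and variants of its human counterpart are associated with autoimmune disease. The gene (ENSMUSG00000027843, plus strand of chromosome 3, 103859795 to 103912247) had the largest log2 fold change of the 9. The young libraries had from 225 (female 1) through a median of 423 to 489 CPM (male 2). In the middle-aged group it had 369 (male 1), 499.6 (male 2), 504 (female 1), 455 (female 2) and 568.3 CPM (female 3). The middle-aged libraries male 2, female 1 and female 3 lay above every young library, and the other 2 did not. The young mean was 383 ± 109.9 CPM (SD, n = 6) and the middle-aged mean 479 ± 73.5 CPM (SD, n = 5). The log2 fold change was 0.32 (standard error 0.25, 95% interval -0.22 to 0.87, edgeR adjusted p = 1.00). The 2-sided exact permutation p was 0.160. Within libraries of the same number, the mean log2 CPM, middle-aged minus young, differed by 0.80 (number 1), 0.12 (number 2) and 0.31 (number 3). Both young libraries numbered 1 were shallow, and the part of depth in the first value was not tested. Over 26 alternatives the adjusted p ran from 0.479 to 1.00. With a term for the libraries numbered 1 the log2 fold change was 0.41 with an unadjusted p of 0.0299 and an edgeR adjusted p of 0.655. Among the libraries numbered 2 or 3 it was 0.19 (95% interval -0.17 to 0.55, edgeR adjusted p = 0.999), so that no fit put Ptpn22 past the threshold. The count ratio of Ptpn22 to Csk ran from 0.962 to 2.98 in young and from 1.91 to 3.34 in middle-aged CD8+ Tregs. Its mean log2 value differed by 0.29 (exact permutation p = 0.431, adjusted 0.974), by 0.09 without young female 1, the library with the lowest ratio, and by 0.14 among the libraries numbered 2 or 3.

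Ptpn2 encodes a phosphatase that restrains both Lck and the JAK kinases of cytokine receptors, among them those of CD122, the IL-2 and IL-15 receptor subunit of the sorting gate. Ptpn2 (ENSMUSG00000024539, minus strand of chromosome 18) was the steadiest gene of the 9, with a 1.45-fold range over the 11 libraries. It had 112 to 162 CPM in young and 118 to 147 CPM in middle-aged libraries. Its log2 fold change was 0.0042 (95% interval -0.40 to 0.41, edgeR adjusted p = 1.00). With the libraries numbered 2 or 3 alone it was -0.05 (95% interval -0.46 to 0.36). The libraries numbered 1 differed from the others by 0.01 on the log2 scale (95% interval -0.33 to 0.35, edgeR adjusted p = 0.967).

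Dok1 and Dok2 encode adaptors that recruit the Ras inhibitor RasGAP and SHIP-1. Dok2 (ENSMUSG00000022102, plus strand of chromosome 14, 70766036 to 70778495) had 209 to 289 CPM in young libraries. The middle-aged libraries had 245 (male 1), 259 (male 2), 375 (female 1), 287 (female 2) and 205 CPM (female 3), so that both the highest and the lowest library were middle-aged females. Its log2 fold change was 0.14 (95% interval -0.32 to 0.60, edgeR adjusted p = 1.00). Dok1 (ENSMUSG00000068335, minus strand of chromosome 6, 83030934 to 83033471) had 16.1 to 38.6 CPM in young and 22.5 to 41.7 CPM in middle-aged libraries. The log2 fold change of Dok1 was 0.17 (95% interval -0.42 to 0.77, edgeR adjusted p = 1.00). With the libraries numbered 2 or 3 alone, the log2 fold change was 0.0028 for Dok2 (95% interval -0.42 to 0.43). That of Dok1 turned to -0.12 (95% interval -0.70 to 0.46, edgeR adjusted p = 0.999 for each gene). Dok1 counts were 0.0607 to 0.148 of those of Dok2 in young and 0.0967 to 0.145 in middle-aged libraries, a difference of 0.09 in the mean log2 ratio (exact permutation p = 0.773, adjusted 0.989). That difference was -0.10 among the libraries numbered 2 or 3 (exact permutation p = 0.571, adjusted 0.714).

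Levels of the 9 genes were set in order per gene length, over all 11 libraries. The order in RPKM was Ptpn6 (299 ± 60.5, SD, n = 11), Dok2 (89.5 ± 17.1), Ptprc (84.5 ± 24.8), Ptpn22 (63.0 ± 15.3), Csk (53.3 ± 12.3), Ptpn2 (43.2 ± 5.87), Inpp5d (20.8 ± 10.2), Dok1 (14.9 ± 3.97) and Ptpn11 (4.10 ± 0.766). Neighbours in this order were compared within libraries by an exact 2-sided sign-flip permutation test, adjusted over 8 pairs. Ptpn6 exceeded Dok2 by 3.32-fold, Ptpn2 exceeded Inpp5d by 2.35-fold and Dok1 exceeded Ptpn11 by 3.57-fold, each in 11 of 11 libraries (exact permutation p = 0.000977, the smallest this test can give, adjusted 0.00260). Ptprc exceeded Ptpn22 by 1.33-fold in 9 of 11 libraries (adjusted exact permutation p = 0.00977). Over all 11 libraries, the pairs Dok2 and Ptprc, Ptpn22 and Csk, Csk and Ptpn2, and Inpp5d and Dok1 did not differ beyond their spread (adjusted exact permutation p from 0.161 to 0.496). With the 7 libraries numbered 2 or 3 alone, Ptpn22 exceeded Csk and Csk exceeded Ptpn2 in 7 of 7 (adjusted exact permutation p = 0.025 each). There, Ptprc ranked above Dok2 (adjusted exact permutation p = 0.391) and Inpp5d above Dok1 (adjusted exact permutation p = 0.0625). The length in the table exceeds that of the longest protein-coding transcript in GENCODE M21 for all 9 genes, and for Ptprc it is 18313 bases against 5074. With that transcript's length, an alternative chosen after the data were seen, Ptprc moved from rank 3 to rank 2 at 305 ± 89.5 CPM per kilobase of transcript (SD, n = 11) and Dok2 from rank 2 to rank 4. Ptpn6 stayed first, but its lead over the next gene, then Ptprc, was 1.21-fold in 9 of 11 libraries (adjusted exact permutation p = 0.0234). Ptpn11 stayed last.

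**Figure D3:**
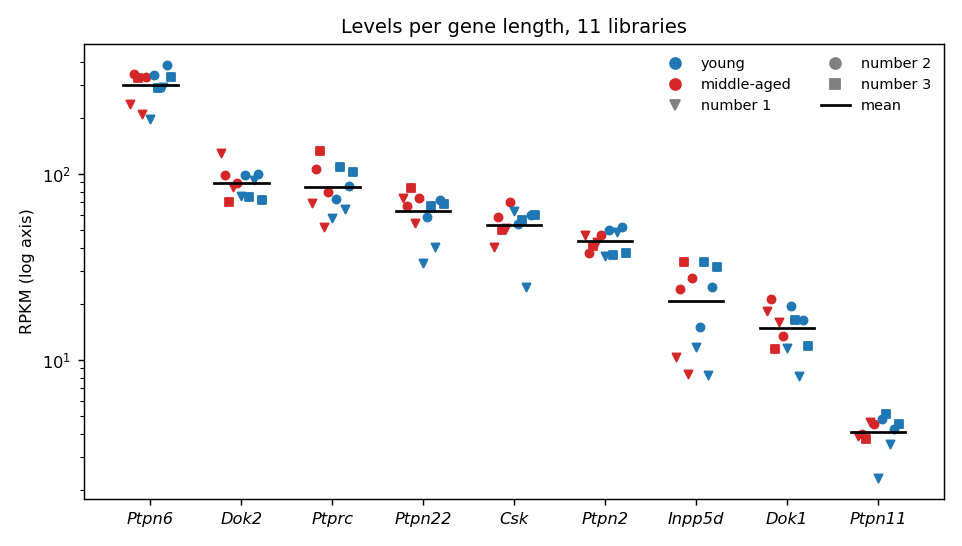
RPKM (log axis, by the gene length in the table) of each gene in the 11 libraries, in order of the mean (black line). Colours give the age group and symbols the replicate number. By this length, Ptpn6 lies above and Ptpn11 below every other gene in all 11 libraries, and the young and middle-aged points of each gene overlap.

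Libraries numbered 1 were compared with the others for each member. At an adjusted p under 0.05, 4 of the 9 genes were lower in libraries numbered 1, where 17.7% of all tested genes were, and 0 were higher, where 16% were. The log2 differences of the 4 were -1.49 (Inpp5d), -0.68 (Ptprc), -0.55 (Ptpn22) and -0.53 (Ptpn6), and those of the other 5 ran from -0.39 (Csk) to 0.13 (Dok2), with edgeR adjusted p from 0.202 to 0.967. The part of gene length and of the B cell marker sum in these differences was not tested. Ptpn6 is short in the table, at 2802 bases, and its difference of -0.53 lay below the median of -0.09 for the length decile around 2786 bases but inside the middle 50% of that decile, which began at -0.80. Dok2, of nearly the same length at 2902 bases, had a log2 difference of 0.13 (95% interval -0.26 to 0.52, edgeR adjusted p = 0.600).

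**Figure D4:**
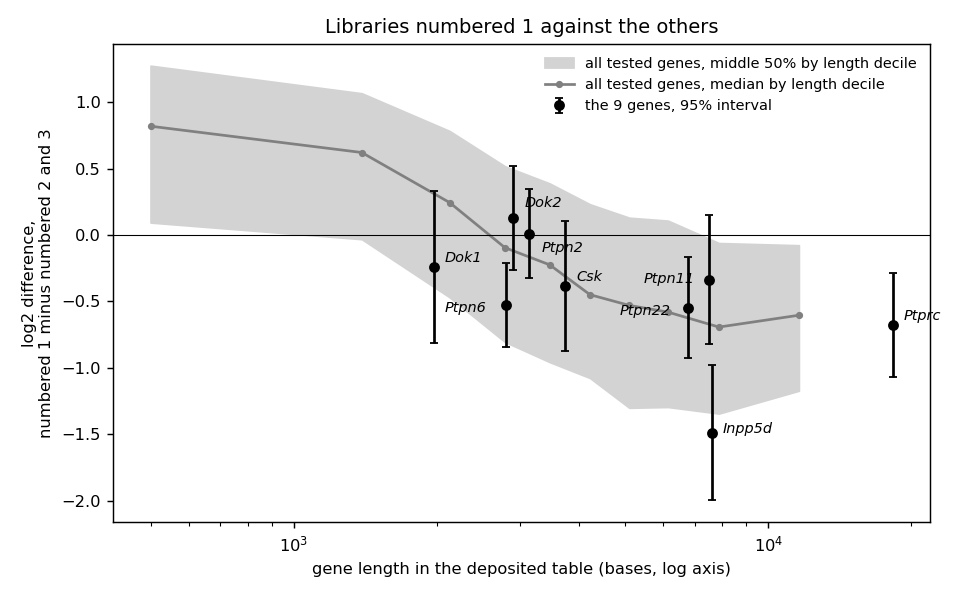
Log2 difference between the 4 libraries numbered 1 and the 7 others (y axis, edgeR with terms for sex and age) against gene length in the table (x axis, log scale). Black points are the 9 genes with 95% intervals, and the grey line and band are the median and the middle 50% of all tested genes in each length decile. Inpp5d lies lowest at -1.49, and Ptpn2 and Dok2 lie at 0.01 and 0.13.

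The gene whose pattern over the 11 libraries was most like that of each member was found among 8331 genes with a mean of at least 10 CPM, by Pearson's r of log2 CPM. For Inpp5d it was Usp19 (r = 0.986, Spearman's rho 0.964), which differed by -1.86 between libraries numbered 1 and the others. For Ptprc it was Nup153 (r = 0.965, rho 0.982), which differed by -1.21. Ptpn22 was most like Tm9sf3 (r = 0.977, rho 0.873), Csk like Uap1 (r = 0.972, rho 0.864), Ptpn6 like Abcf1 (r = 0.961, rho 0.873) and Dok2 like Rtca (r = 0.947, rho 0.882). Ptpn11 was most like Zfand5 (r = 0.946, rho 0.827), Dok1 like Aaas (r = 0.904, rho 0.827) and Ptpn2 like Kmt2e (r = 0.901, rho 0.927). These values describe 11 libraries that share the split by replicate number and differ in depth, each is the highest of 8331, and none is a member.

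For sex, tested in the same model, edgeR's quasi-likelihood test gave an adjusted p under 0.05 to 0 of the 9 genes, where 0.0381% of all tested genes did, and 0 did at an unadjusted p under 0.05, where 0.754% did. The largest difference was that of Dok1, with a log2 value of -0.31 in males against females (95% interval -0.91 to 0.29, edgeR adjusted p = 1.00). The effect of age did not differ detectably by sex, since 0 of the 9 genes, and 0% of all tested genes, had an interaction with an adjusted p under 0.05, and 0 of the 9 an unadjusted p under 0.05, where 1.2% of all tested genes did. The largest interaction was that of Ptprc, whose log2 fold change with age was -0.35 with males alone and 0.37 with females alone (interaction term -0.72, 95% interval -1.90 to 0.46, edgeR adjusted p = 1.00). With 2 middle-aged males, the intervals of the interaction were wide for each of the 9 genes.

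The genes around this machinery were followed with 4 lists of other genes. Kinases, adaptors and receptor chains on which the phosphatases act gave 0 of 26 tested genes with an edgeR adjusted p under 0.05, where 0.0229% of all tested genes did. At an unadjusted p under 0.05 they gave 0, where 2.99% of all tested genes did. Their median log2 fold change was -0.0062 beside 0.0028 over all tested genes. Lck, the kinase that CD45 and Csk regulate, averaged 2758 ± 857 CPM in the young (SD, n = 6) and 2664 ± 381 CPM in the middle-aged group (SD, n = 5), and its log2 fold change was -0.02 (95% interval -0.54 to 0.50, edgeR adjusted p = 1.00). Zap70, the kinase at the T cell receptor chains, averaged 338 ± 45.5 CPM in the young (SD, n = 6) and 324 ± 29.8 CPM in the middle-aged group (SD, n = 5), and its log2 fold change was -0.04 (95% interval -0.42 to 0.34, edgeR adjusted p = 1.00). Lck and Zap70 are named after their values were seen, as the main substrates.

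Of 25 tested genes of other tyrosine and inositol phosphatases, 0 had an edgeR adjusted p under 0.05, where 0.0229% of all tested genes did. Their median log2 fold change was -0.09. At an unadjusted p under 0.05 there was 1, where 2.99% of all tested genes were. That gene was Ptpn13, a large cytoplasmic phosphatase, which had 0 counts in 4 young libraries and 3 and 14 counts in the other 2 (young female 3 and young male 3). The middle-aged libraries had 22 (male 1), 22 (male 2), 33 (female 1), 200 (female 2) and 79 counts (female 3). In CPM the groups did not overlap, the middle-aged being higher, as for 1.01% of all tested genes. Ptpn13 passed the count filter only through the middle-aged libraries, so that the absence of overlap is no separate support for a rise. Ptpn13 averaged 0.140 ± 0.268 CPM in the young (SD, n = 6) and 3.24 ± 3.05 CPM in the middle-aged group (SD, n = 5) (edgeR adjusted p = 0.843, unadjusted p = 0.00958). The adjusted p was under 0.05 in 2 of 25 alternatives, DESeq2 and limma voom. The filter of at least 10 counts in every library dropped the gene. The middle-aged library with the most, female 2, was the one with the high myeloid marker sum. The part of that sum in the value was not tested, and the other 4 middle-aged libraries also lay above every young library.

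Of 26 tested adaptors, ligases, lipid enzymes and cytokine signalling inhibitors that restrain activation, 0 had an edgeR adjusted p under 0.05, where 0.0229% of all tested genes did. Their median log2 fold change was -0.02. At an unadjusted p under 0.05 there were 2, where 2.99% of all tested genes were. Both were of the suppressor of cytokine signalling family, whose proteins bind JAK kinases and cytokine receptors. Socs3 had 56.2 CPM (female 1) to 117 CPM (male 3) in young libraries. Those of the middle-aged group had 159 (male 1), 225 (male 2), 107 (female 1), 191 (female 2) and 202 CPM (female 3). The groups overlapped through young male 3 and middle-aged female 1 alone. Socs3 averaged 85.4 ± 21.8 CPM in the young (SD, n = 6) and 177 ± 45.8 CPM in the middle-aged group (SD, n = 5). Its log2 fold change was 1.09 (95% interval 0.56 to 1.62, edgeR adjusted p = 0.321). Over 26 alternatives the adjusted p ran from 0.00802 to 1.00 and was under 0.05 in 4 of them, 0.00878 in DESeq2, 0.00802 in limma voom, 0.0324 in edgeR with a term for libraries numbered 1 and 0.0420 in edgeR with a gene length slope. Socs1 averaged 91.4 ± 32.5 CPM in the young (SD, n = 6) and 165 ± 68.8 CPM in the middle-aged group (SD, n = 5), and its log2 fold change was 0.85 (95% interval 0.16 to 1.53, edgeR adjusted p = 1.00). The adjusted p of Socs1 was under 0.05 in 1 of 26 alternatives, limma voom (0.0433). Its log2 fold change was 1.44 with males alone and 0.36 with females alone. Of the 13129 tested genes, Socs1 among them, 0 had an interaction of age and sex with an edgeR adjusted p under 0.05. Among the libraries numbered 2 or 3 the log2 fold change was 0.67 for Socs1 and 1.23 for Socs3.

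Of 30 tested inhibitory receptors above the phosphatases, 1 had an edgeR adjusted p under 0.05, where 0.0229% of all tested genes did. At an unadjusted p under 0.05, 4 were higher and 3 lower in the middle-aged group, where 2% of all tested genes were higher and 0.99% lower. The median log2 fold change was 0.34. No test of the difference between the receptors and the phosphatases was made. The list holds receptors that B cells or myeloid cells also make, such as Cd22, Cd72 and Pirb. Fcgr2b, the inhibitory Fc receptor known to recruit SHIP-1, rose from a young mean of 6.97 ± 1.64 CPM (SD, n = 6) to 43.8 ± 10.5 CPM in the middle-aged group (SD, n = 5), with a log2 fold change of 2.68 and an edgeR adjusted p of 0.00469, while the log2 fold change of Inpp5d was -0.02. The Fcgr2b call was kept in 22 of 26 alternatives and lost with a within-sex block for replicate number (adjusted p = 0.0836), with the shared block and length slope (0.252) and with either sex alone (1.00 each). Myeloid cells, whose marker sum ran higher in the middle-aged group, also make Fcgr2b, and their part in its rise was not tested. Without middle-aged female 2, the library with the highest sum, the log2 fold change of Fcgr2b was 2.77 (edgeR adjusted p = 0.00557). Klrc1, which encodes the ITIM receptor NKG2A, had a log2 fold change of 1.43 (95% interval 0.69 to 2.17, edgeR adjusted p = 0.344). Its adjusted p was under 0.05 in 6 of 26 alternatives, 0.0141 in DESeq2, 0.0143 in limma voom and, in edgeR, 0.00994 with a term for libraries numbered 1, 0.0175 with the length slope, 0.0214 with the shared replicate block and 0.0456 with all genes of at least 1 count. Klra3, a Ly49 receptor gene, averaged 87.4 ± 22.4 CPM in the young (SD, n = 6) and 164 ± 73.1 CPM in the middle-aged group (SD, n = 5), and its log2 fold change was 0.90 (95% interval 0.25 to 1.55, edgeR adjusted p = 0.910), and Ly49 paralogs can share reads. Slamf6, a SLAM family receptor that can recruit SHP-1, averaged 150.4 ± 15.8 CPM in the young (SD, n = 6) and 91.9 ± 34.1 CPM in the middle-aged group (SD, n = 5), and its log2 fold change was -0.76 (95% interval -1.30 to -0.22, edgeR adjusted p = 0.843). Cd244a had a log2 fold change of -1.80 (95% interval -3.25 to -0.36) and Klrb1b of -2.92 (95% interval -5.75 to -0.08), with an edgeR adjusted p of 1.00 each. Klrb1b had 0 counts in 2 middle-aged libraries, and 2 (male 2), 104 (female 2) and 30 (female 3) in the others. The size of both changes depended on middle-aged female 2, without which the values were -2.46 for Cd244a and -3.99 for Klrb1b. Slamf6 had an adjusted p under 0.05 in 1 of 26 alternatives (limma voom, 0.0173), and Klra3, Cd244a and Klrb1b in 0. Among the libraries numbered 2 or 3 the log2 fold changes were 2.33 for Fcgr2b, 1.12 for Klrc1, 0.56 for Klra3, -0.88 for Slamf6, -1.32 for Cd244a and -2.004 for Klrb1b, with an edgeR adjusted p under 0.05 for Fcgr2b alone (0.0383).

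**Figure D5:**
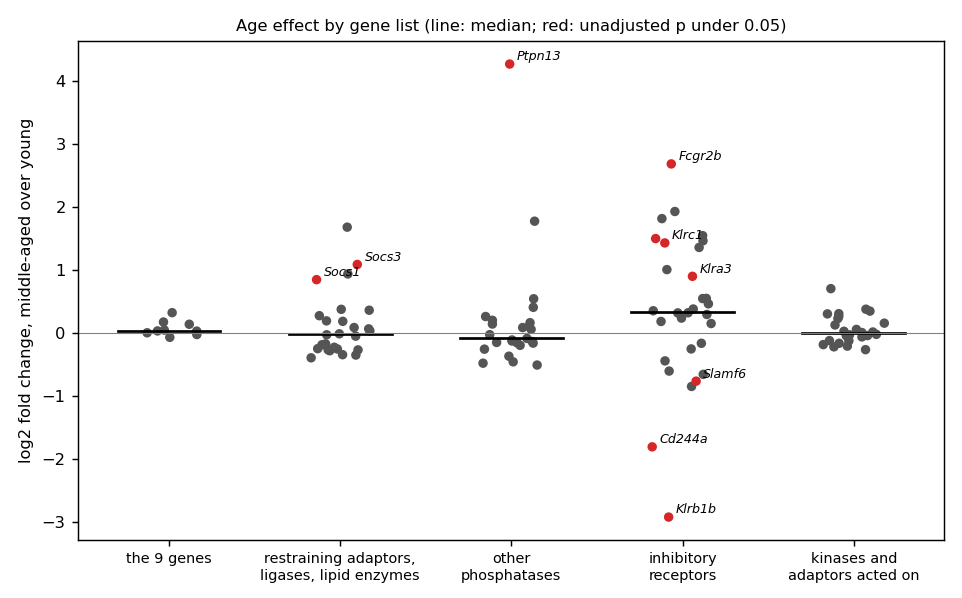
Log2 fold change, middle-aged over young (edgeR, all 11 libraries), of the 9 genes and of the tested genes of 4 other lists. Each point is a gene, the line is the median of the list, and red points have an unadjusted p under 0.05. The 9 genes lie between -0.07 and 0.32, and the receptors between -2.92 and 2.68.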

How the data were processed

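Splenic CD8+ Tregs were sorted, RNA was extracted with a column kit (Zymo) and libraries were made with a high-sensitivity Takara SMARTer kit. The authors deposited a table of raw, whole-number counts for 54532 Ensembl genes, with gene lengths and coordinates that match GRCm38. The submitters' processing notes name kallisto and mm10. The counting program, strandedness and any use of molecular identifiers are not given in the sources used here.

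Counts were fitted in edgeR 4.0.16 (R 4.3.3) with TMM factors, genes kept by filterByExpr (minimum count 10, minimum total 15, 13129 genes), robust estimation and a quasi-likelihood test of age in a model with sex, with Benjamini-Hochberg adjustment over all tested genes. Intervals are 95% intervals from the standard error of the fit. Log2 CPM uses a prior count of 2, and log2 ratios counts plus 1. Exact permutation tests are 2-sided and enumerate every regrouping.

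The members and gene lists were chosen with earlier results of these data known. Genes were named by a rule: all members, up to 3 genes a direction in each other list with the smallest unadjusted p under 0.05, any gene past the adjusted threshold, and the gene most like each member. Alternatives were DESeq2 1.42.0, limma 3.58.1 (voom with quality weights), other scalings and filters, no sex term, replicate blocks, a gene length slope, each sex alone and each library left out. Those chosen after seeing the data were a term for libraries numbered 1, the libraries numbered 2 or 3 alone, and transcript lengths. The fits were tested on simulated data, where DESeq2 gave a larger share of false calls than edgeR or limma voom.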

Additional observations from a re-analysis of the deposited data

Results flagged for a closer look

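A library stood apart from its group in 1 of the 18 comparisons of a member's CPM within an age group of 5 or 6 libraries, and chance alone gives such a result in about 1 of 20 groups. Csk had 91.3 CPM in young male 1, and the nearest young library had 199 CPM, a gap of 0.756 of the whole young range where the critical value is 0.625. Young male 1 is the shallowest library and is numbered 1. Without it the log2 fold change of Csk with age was -0.12.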

How the results depend on the processing

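Over 26 alternatives, 0 of the 9 genes reached an adjusted p under 0.05 in any, and the same held over 17 alternatives each for sex and for the interaction of age and sex. Without 1 library each, the log2 fold change with age ranged from -0.27 to 0.24 for Inpp5d, from 0.18 to 0.44 for Ptpn22 and from -0.12 to 0.13 for Csk. Ptpn22 was positive in all 26 alternatives and had an unadjusted p under 0.05 in 4 of them. Dok2 did so in 1, the shared replicate block with the length slope, where its log2 fold change was -0.27 (edgeR adjusted p = 1.00), opposite in sign to its 0.14. The 4 ratios stayed above an adjusted p of 0.05 in all 13 alternatives each.

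Over all genes, the count of 3 became 17 with at least 1 count in any library, 5 with at least 10 counts in every library, 112 in DESeq2, 138 in limma voom, 5 with no sex term, 41 with the gene length slope, 23 with a term for libraries numbered 1, 0 in males or females alone, and 1 to 4 with 1 library left out, the count being 1 without young male 2, young female 2, young female 3, middle-aged female 1 or middle-aged female 3. For the restraining adaptors and enzymes the count of 0 became 1 in DESeq2, 2 in limma voom, and 1 with the length slope or the term for number 1. For other phosphatases it became 1 in DESeq2 and 1 in limma voom. For the receptors the count of 1 became 2 with at least 1 count in any library, in DESeq2, with the length slope and with the term for number 1, 4 in limma voom, and 0 in either sex alone. The number of neighbours in the order of levels that differed rose from 4 to 7 with transcript lengths. The causes were not tested.

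With the replicate number as a block, the count over all genes was 2 within sex, 19 with the block shared by both sexes and 0 with that block and the length slope, and the receptor count 0, 2 and 0. Deviations from the mean of each sex and age group were correlated between same-numbered libraries of the age groups. The values were 0.32 and 0.18 in males and 0.43, 0.03 and 0.39 in females. The deviations of the 2 middle-aged males are mirror images, so that the male values are not separate. Centring also pulls correlations between different numbers down, so that these values alone cannot show whether the numbers pair the libraries. Not every library correlated best with its own number. Ptpn22 had a log2 fold change of 0.43 with either block (adjusted p = 0.782 within sex and 0.479 shared) and 0.06 with the shared block and the length slope. The Fcgr2b adjusted p was 0.0836 with the block within sex, 0.252 with the shared block and length slope, and above 0.05 in each sex alone. The smallest count of a member in any library was 89.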
